A study of Mus musculus with 26 samples.

Results

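This account sets proprioceptors, the sensory neurons that report muscle length and tension, against Aβ rapidly adapting low-threshold mechanoreceptors (Aβ RA-LTMRs), the touch neurons that answer the onset and end of skin contact. The members are the libraries that the labels give to these subtypes, 3 of proprioceptors and 5 of Aβ RA-LTMRs, which is 8 of the 26 libraries in a study of 8 subtypes of mouse dorsal root ganglion neuron. Messenger RNA was sequenced from fluorescent neurons sorted from acutely dissociated ganglia of mice aged postnatal day 23 or more. Proprioceptors carried PVIRESCre;R26tdtomato(Ai14), in which parvalbumin-driven Cre switches on a red reporter, and came from thoracic ganglia alone, because at limb levels this line also marks some touch neurons of the skin. Aβ RA-LTMRs carried Npy2r-GFP, a green reporter driven from the gene of a neuropeptide Y receptor, and came from ganglia of all axial levels. No mouse of either group had tamoxifen. Reporter line and axial level therefore differ between the subtypes throughout, and neither can be told apart from subtype in any result.

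Proprioceptors end on muscle spindles and Golgi tendon organs and send axons to the intermediate and ventral spinal cord. Their survival and wiring depend on neurotrophin 3, its receptor TrkC and the transcription factors Runx3 and Etv1. Aβ RA-LTMRs form lanceolate endings around hair follicles and supply Meissner and Pacinian corpuscles. They depend early on the receptor Ret and send axons to the deep dorsal horn and the dorsal column nuclei. Both are large neurons with thickly myelinated, fast axons.

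Levels are given in CPM, the deposited count of a gene relative to the size of its library after edgeR's TMM normalization. A gene was called where edgeR's quasi-likelihood test gave a Benjamini-Hochberg adjusted p under 0.05 and the log2 fold change, proprioceptor over Aβ RA-LTMR, was at least 1 in size. Positive fold changes are higher in proprioceptors, and the value after ± is the standard error. Means of CPM are given ± SD over the 3 proprioceptor and the 5 Aβ RA-LTMR libraries. Total counts per library ran from 22651313 to 56983094. A library holds sorted neurons pooled over mice and rounds, so a p-value measures the spread between such pools. In pooled neurons, fewer cells that carry a transcript and less of it per cell cannot be told apart.

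Of 17411 genes tested, 999 were higher in proprioceptors (5.74%) and 915 were lower (5.26%), which makes 1914 calls (11.0% of the tested genes). Counts for gene lists below are to be read beside these shares, and no list was tested as a set. The median log2 fold change over all tested genes was 0.04. Of all tested genes, 4120 (23.7%) had no overlap between the libraries of the subtypes, among them 1692 of the 1914 calls. The log2 CPM of all genes correlated at 0.967 to 0.986 between proprioceptor libraries, at 0.949 to 0.985 between Aβ RA-LTMR libraries and at 0.926 to 0.951 across the subtypes, as a description over genes that share their library. The plot of fold change against level shows calls in both directions from the lowest to the highest levels.

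**Figure D1:**
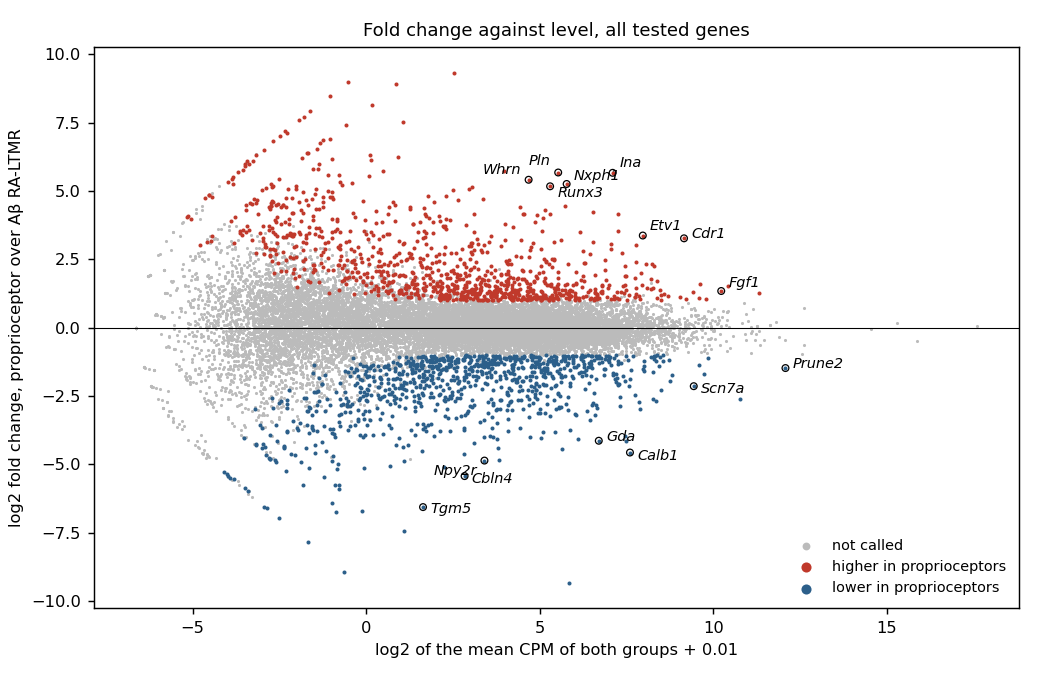
Log2 fold change, proprioceptor over Aβ RA-LTMR, against the log2 of the mean CPM of both groups for all 17411 tested genes. Red points are the 999 genes higher in proprioceptors, blue points the 915 lower ones and grey points the rest. Circled genes are described in the text, from Pln at 5.68 and Ina at 5.67 to Tgm5 at -6.56. The most extreme unlabelled points are pseudogenes, predicted genes and genes with few counts in one of the subtypes.

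The libraries were not alike in technical terms. The proprioceptor libraries and Aβ RA-LTMR libraries 4 and 5 had reads of 15 to 50 bases in the authors' alignment summary, and Aβ RA-LTMR libraries 1 to 3 had reads of 25 to 50 bases. Among the 5 libraries with the shared read lengths, with the other subtypes still in the fit, 553 genes were higher in proprioceptors (3.18%) and 657 lower (3.77%). Of the calls from all 8 libraries, 449 higher and 573 lower ones were called again there, and 3 had the opposite sign. The share of bases in exons was 53.8% to 70.4% in proprioceptors and 45.7% to 77.6% in Aβ RA-LTMRs. It was under 60% in proprioceptor library 1 and in Aβ RA-LTMR libraries 4 and 5. Without these 3 libraries, read lengths differed between the subtypes throughout. Aβ RA-LTMR libraries 4 and 5, the only ones of their group with the shared read lengths, had its lowest exonic shares (56.1% and 45.7%). In the comparison at shared read lengths, the part of read length, exonic share and fewer libraries cannot be told apart.

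Markers matched the labels in most cases. Pvalb, whose promoter drives the Cre of the proprioceptor line and which encodes the calcium buffer parvalbumin, stood at 191, 329.7 and 323 CPM in the 3 proprioceptor libraries, against 27.1, 18.4, 15.8, 22.3 and 36.7 CPM in the 5 Aβ RA-LTMR libraries (log2 fold change 3.55 ± 0.35, adjusted p = 3.8e-08). Npy2r, whose promoter drives the green reporter, stood at 1.22, 0.736 and 0.305 CPM in the 3 proprioceptor libraries, against 15.4, 25.9, 25.1, 19.9 and 15.6 CPM in the 5 Aβ RA-LTMR libraries (log2 fold change -4.86 ± 0.84, adjusted p = 1.7e-04). The groups did not overlap for either gene, and each was higher in the subtype whose reporter its promoter drives. Runx3, the transcription factor that directs neurons to the proprioceptor fate, had 73.2, 73.9 and 81.97 CPM in the 3 proprioceptor libraries, against 1.76, 1.07, 4.199, 3.42 and 0.156 CPM in the 5 Aβ RA-LTMR libraries (log2 fold change 5.17 ± 0.58, adjusted p = 4.4e-07). Etv1, an ETS-family factor that proprioceptors need to connect to motor neurons, had 456, 476 and 435 CPM in the 3 proprioceptor libraries, against 61.8, 38.4, 50.5, 40.2 and 29.1 CPM in the 5 Aβ RA-LTMR libraries (log2 fold change 3.37 ± 0.23, adjusted p = 1.8e-10). Runx3 was close to equal in the 3 proprioceptor libraries and varied most in Aβ RA-LTMRs, where library 5 had the fewest counts.

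Whrn, which encodes the scaffold protein whirlin, had 52.8, 48.7 and 48.3 CPM in the 3 proprioceptor libraries, against 1.72, 1.05, 1.34, 1.24 and 0.437 CPM in the 5 Aβ RA-LTMR libraries (log2 fold change 5.41 ± 0.46, adjusted p = 3.6e-09). Spp1, the secreted glycoprotein osteopontin, averaged 368 ± 81.4 CPM in proprioceptors and 68.98 ± 21.98 CPM in Aβ RA-LTMRs (log2 fold change 2.42 ± 0.40, adjusted p = 8.3e-05). Ntrk3, which encodes TrkC, averaged 110.5 ± 38.4 CPM in proprioceptors and 49.3 ± 14.4 CPM in Aβ RA-LTMRs (log2 fold change 1.16 ± 0.29, adjusted p = 0.00467), but without proprioceptor library 1, the highest of the 3, its log2 fold change was 0.85 and the call was lost. On the touch side, Ret, the receptor of the GDNF family ligands, had 114, 90 and 60.9 CPM in the 3 proprioceptor libraries, against 629, 533, 617, 464 and 582 CPM in the 5 Aβ RA-LTMR libraries (log2 fold change -2.68 ± 0.19, adjusted p = 1.8e-10). Gfra2, the neurturin co-receptor that works with Ret, averaged 17.1 ± 1.03 CPM in proprioceptors and 49.6 ± 7.61 CPM in Aβ RA-LTMRs (log2 fold change -1.54 ± 0.38, adjusted p = 0.00535). Calb1, the calcium buffer calbindin, had 14.6, 18.6 and 13.8 CPM in the 3 proprioceptor libraries, against 383, 493, 425, 189.6 and 365 CPM in the 5 Aβ RA-LTMR libraries (log2 fold change -4.56 ± 0.61, adjusted p = 6.2e-06), and Aβ RA-LTMR library 4 was the lowest of its group at 189.6 CPM. Ntrk2, which encodes the BDNF receptor TrkB, averaged 218 ± 25.4 CPM in proprioceptors and 439.6 ± 20.9 CPM in Aβ RA-LTMRs (log2 fold change -1.01 ± 0.19, adjusted p = 4.5e-04). Its fold change lay at the threshold, at -0.97 in the libraries with shared read lengths, and the call was lost there and without Aβ RA-LTMR library 3, proprioceptor library 1 or proprioceptor library 2.

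Some markers of the labels did not separate the subtypes. Slc17a7, which encodes the vesicular glutamate transporter VGLUT1, was not called (log2 fold change 0.25 ± 0.25, adjusted p = 0.534), and neither was Maf, a transcription factor of rapidly adapting touch neurons (log2 fold change 0.34 ± 0.24, adjusted p = 0.351). Colq, the collagen tail of acetylcholinesterase, averaged 2.37 ± 0.281 CPM in proprioceptors and 5.66 ± 0.925 CPM in Aβ RA-LTMRs and missed the adjusted threshold (log2 fold change -1.26 ± 0.61, adjusted p = 0.157). Mafa, another transcription factor of early Ret-positive touch neurons, reached no more than 0.3998 CPM in any of the 8 libraries.

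**Figure D2:**
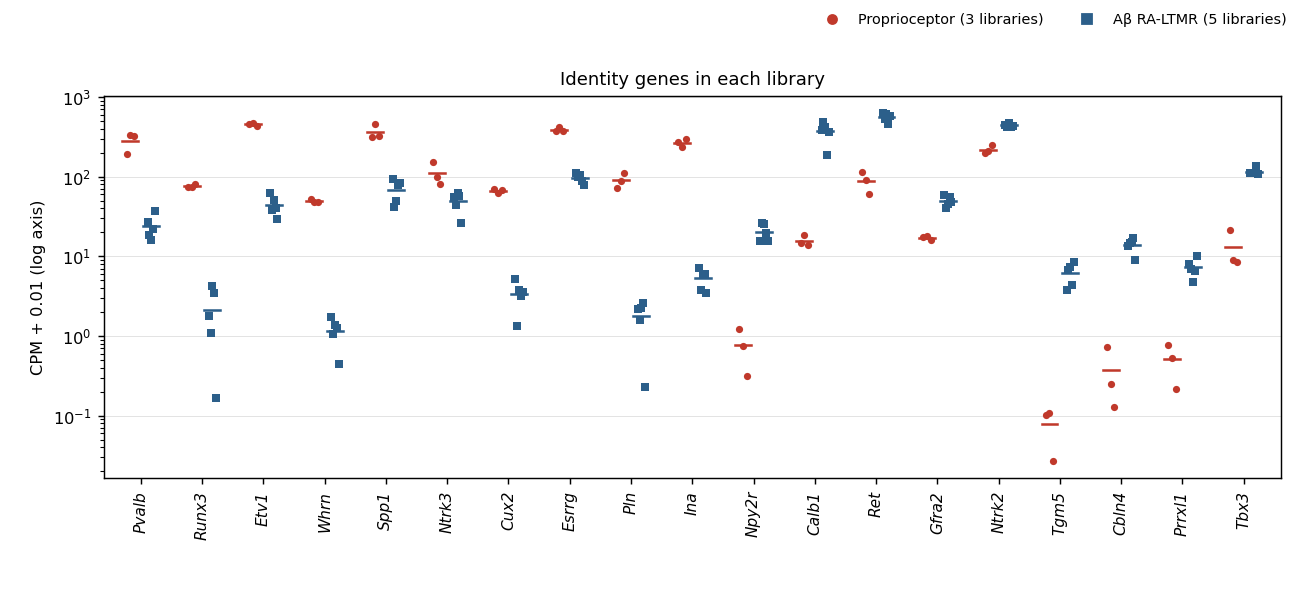
CPM plus 0.01, on a log axis, of 19 identity genes in each library, with proprioceptors as red circles at the left of each gene and Aβ RA-LTMRs as blue squares at its right. Short lines are group means. The groups do not overlap for any of the 19 genes, from Pvalb and Runx3, higher in proprioceptors, to Calb1 and Tgm5, lower in them. Several were picked by filters that required no overlap, and 23.7% of all tested genes had no overlap. The markers Slc17a7, Maf, Mafa and Colq are not shown.

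Promoter windows are printed for the labelling genes Pvalb and Npy2r, and for the transcription factors Runx3 and Etv1, chosen as markers of proprioceptors. The table used holds 2 windows each for Pvalb, Runx3 and Etv1, and the window printed is the first listed. Each window runs from 250 bases before to 50 bases after a transcription start of the RefSeq annotation of GRCm38.p6, read 5′ to 3′ on the gene's strand. Capitals mark the RUNX core TGTGGT and the ETS core CCGGAAG on either strand. Pvalb is at chr15:78206351-78206650 on the minus strand, Npy2r at chr3:82548036-82548335 on the minus strand, Runx3 at chr4:135120395-135120694 on the plus strand and Etv1 at chr12:38779832-38780131 on the plus strand.
Pvalb: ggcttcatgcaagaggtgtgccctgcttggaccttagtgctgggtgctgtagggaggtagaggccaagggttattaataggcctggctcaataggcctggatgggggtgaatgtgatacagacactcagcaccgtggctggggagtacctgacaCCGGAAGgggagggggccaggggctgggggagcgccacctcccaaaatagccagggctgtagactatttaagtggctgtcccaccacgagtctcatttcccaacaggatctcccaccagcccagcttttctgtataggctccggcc
Npy2r: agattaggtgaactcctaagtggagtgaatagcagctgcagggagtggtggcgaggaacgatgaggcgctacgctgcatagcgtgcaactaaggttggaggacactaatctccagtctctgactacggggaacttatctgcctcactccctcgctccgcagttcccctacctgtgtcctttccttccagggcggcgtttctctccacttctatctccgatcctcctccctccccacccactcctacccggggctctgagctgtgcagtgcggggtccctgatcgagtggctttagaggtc
Runx3: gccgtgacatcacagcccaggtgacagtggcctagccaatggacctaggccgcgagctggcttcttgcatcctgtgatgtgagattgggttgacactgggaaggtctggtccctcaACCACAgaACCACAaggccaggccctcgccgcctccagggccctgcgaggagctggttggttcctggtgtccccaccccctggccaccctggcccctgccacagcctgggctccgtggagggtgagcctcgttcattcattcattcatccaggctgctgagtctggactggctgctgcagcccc
Etv1: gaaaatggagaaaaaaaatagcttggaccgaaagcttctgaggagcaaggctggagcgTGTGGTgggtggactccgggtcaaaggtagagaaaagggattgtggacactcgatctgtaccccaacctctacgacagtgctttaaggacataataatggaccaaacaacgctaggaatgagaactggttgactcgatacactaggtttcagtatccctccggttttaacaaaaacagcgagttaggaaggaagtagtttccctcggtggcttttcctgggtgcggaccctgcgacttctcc
The Runx3 window held 2 RUNX cores, the Etv1 window 1 RUNX core, the Pvalb window 1 ETS core, and the Npy2r window neither. The other windows of Pvalb, Runx3 and Etv1 held no match to either core. Over genes higher in proprioceptors, 12.8% of 837 windows held the RUNX core, against 11.7% of 802 windows of genes lower in proprioceptors and 12.4% of 13433 windows of tested genes without a call. The ETS core was in 9.68%, 6.11% and 15.4% of these sets, in the same order. Over all 32851 windows used the shares were 16.8% for the RUNX core and 8.86% for the ETS core. The windows counted in all these sets leave out repeated entries and a whole chromosome of the table. A match describes the letters of the window alone.

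Genes were ranked by fold change among called genes with at least 5 CPM in the higher subtype, more than 3 counts in the lower one, no overlap between the subtypes and a call in the libraries of shared read lengths. Predicted genes and pseudogenes were left out, and called genes of lower level had larger fitted folds than many of those ranked. The 12 ranked genes with the largest increase in proprioceptors include genes of calcium handling, the cytoskeleton and cell adhesion. Pln encodes phospholamban, the small inhibitor of the calcium pump of the endoplasmic reticulum that is best known from heart muscle, and stood at 73.1, 87.9 and 111 CPM in the 3 proprioceptor libraries, against 2.16, 1.59, 2.25, 2.62 and 0.219 CPM in the 5 Aβ RA-LTMR libraries (log2 fold change 5.68 ± 0.56, adjusted p = 4.4e-08). Ina encodes the neuronal intermediate filament internexin and stood at 275, 233 and 296 CPM in the 3 proprioceptor libraries, against 7.04, 3.79, 6.06, 6.04 and 3.47 CPM in the 5 Aβ RA-LTMR libraries (log2 fold change 5.67 ± 0.38, adjusted p = 1.8e-10). Nxph1, which encodes neurexophilin 1, a secreted ligand of neurexins, had 111, 97.4 and 111 CPM in the 3 proprioceptor libraries, against 4.88, 1.92, 3.78, 2.67 and 0.4996 CPM in the 5 Aβ RA-LTMR libraries (log2 fold change 5.26 ± 0.93, adjusted p = 2.9e-04). The filters required all proprioceptor libraries to be above all Aβ RA-LTMR libraries for these genes. Aβ RA-LTMR library 5 was the lowest library for each of them. Exons of Pln overlap those of Cep85l and exons of Ina those of Nt5c2 on the opposite strand, and the strand setting of the counting is not given in the sources used here.

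The protocadherin gene Pcdh8 rose to 15.97 ± 1.93 CPM in proprioceptors, against 0.445 ± 0.299 CPM in Aβ RA-LTMRs (log2 fold change 5.14 ± 0.63, adjusted p = 1.3e-06). Lmcd1, a LIM-domain cofactor of transcription, averaged 10.9 ± 3.21 CPM in proprioceptors and 0.324 ± 0.211 CPM in Aβ RA-LTMRs (log2 fold change 5.06 ± 0.76, adjusted p = 2.6e-05). Cdk18, a PCTAIRE-family kinase, averaged 19.8 ± 4.85 CPM in proprioceptors and 0.761 ± 0.482 CPM in Aβ RA-LTMRs (log2 fold change 4.70 ± 0.55, adjusted p = 7.3e-07). Lcp2, the adaptor SLP-76 of immune receptor signalling, averaged 11.98 ± 6.22 CPM in proprioceptors and 0.461 ± 0.271 CPM in Aβ RA-LTMRs (log2 fold change 4.65 ± 0.65, adjusted p = 9.6e-06). Lmo7, a LIM-domain protein of cell junctions, averaged 7.46 ± 1.26 CPM in proprioceptors and 0.292 ± 0.2297 CPM in Aβ RA-LTMRs (log2 fold change 4.61 ± 0.73, adjusted p = 4.7e-05). Rps18 and Rpl29, which encode ribosomal proteins, had log2 fold changes of 4.83 and 4.81. Both have near-identical copies elsewhere in the genome among which reads can be split, so these values are uncertain. Over all 8 subtypes of the study, 10 of the 12 ranked genes had their highest mean in proprioceptors. These genes were picked for their excess in proprioceptors, so a high rank there is partly built in. No share over all called genes is given beside this count. For Pln the next mean was 2.77 CPM, in Aβ SA1-LTMRs, and for Runx3 it was 61.9 CPM, also in Aβ SA1-LTMRs, so that Runx3 set proprioceptors apart from Aβ RA-LTMRs far more than from that subtype.

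Among abundant genes, Cdr1 had 971, 1044 and 1079 CPM in the 3 proprioceptor libraries, against 41.03, 115, 94.5, 239.5 and 45.3 CPM in the 5 Aβ RA-LTMR libraries (log2 fold change 3.27 ± 0.42, adjusted p = 3.4e-06), with Aβ RA-LTMR library 4 the highest of its group. Its exon lies opposite an exon of the noncoding RNA gene C230004F18Rik, and it is not given whether the counts keep the strands apart. Fgf1, a fibroblast growth factor without a secretion signal, averaged 1716 ± 116 CPM in proprioceptors and 676 ± 97.5 CPM in Aβ RA-LTMRs (log2 fold change 1.34 ± 0.18, adjusted p = 6.2e-06). Reep5, which shapes tubular endoplasmic reticulum, averaged 3592 ± 430.1 CPM in proprioceptors and 1493 ± 153 CPM in Aβ RA-LTMRs (log2 fold change 1.27 ± 0.13, adjusted p = 7.1e-08). Atp11a, a phospholipid flippase, averaged 2020.2 ± 199 CPM in proprioceptors and 697 ± 110.1 CPM in Aβ RA-LTMRs (log2 fold change 1.54 ± 0.19, adjusted p = 1.3e-06). Napb, the neuronal SNAP protein that recycles SNARE complexes, averaged 1196 ± 216 CPM in proprioceptors and 576 ± 62.95 CPM in Aβ RA-LTMRs (log2 fold change 1.05 ± 0.13, adjusted p = 9.8e-07), and its call was lost without proprioceptor library 2, where its log2 fold change was 0.94.

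Under the same filters, the largest decreases in proprioceptors were in genes for enzymes, secreted factors and adhesion. Tgm5, which encodes the crosslinking enzyme transglutaminase 5, had 0.0907, 0.0994 and 0.0169 CPM in the 3 proprioceptor libraries, against 3.79, 6.72, 7.24, 4.35 and 8.49 CPM in the 5 Aβ RA-LTMR libraries (log2 fold change -6.56 ± 0.60, adjusted p = 1.4e-08). Cbln4, a cerebellin that bridges neurexins to their partners at synapses, had 0.726, 0.239 and 0.118 CPM in the 3 proprioceptor libraries, against 13.3, 14.9, 15.01, 17.2 and 8.898 CPM in the 5 Aβ RA-LTMR libraries (log2 fold change -5.43 ± 0.76, adjusted p = 9.5e-06). Cdh3, P-cadherin, averaged 0.325 ± 0.355 CPM in proprioceptors and 9.13 ± 3.96 CPM in Aβ RA-LTMRs (log2 fold change -5.11 ± 0.71, adjusted p = 7.8e-06). As the filters required, no proprioceptor library reached an Aβ RA-LTMR library for any of these genes. Cpne9, a calcium-dependent copine, averaged 0.556 ± 0.0908 CPM in proprioceptors and 13.5 ± 4.96 CPM in Aβ RA-LTMRs (log2 fold change -4.62 ± 0.44, adjusted p = 2.5e-08). Hgf, the hepatocyte growth factor that binds the receptor Met, averaged 0.278 ± 0.184 CPM in proprioceptors and 5.84 ± 1.61 CPM in Aβ RA-LTMRs (log2 fold change -4.50 ± 0.54, adjusted p = 1.1e-06).

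Itga3, the integrin alpha 3 subunit for laminins, had 7.39, 4.29 and 1.996 CPM in the 3 proprioceptor libraries, against 101, 94.6, 126, 63.3 and 90.4 CPM in the 5 Aβ RA-LTMR libraries (log2 fold change -4.42 ± 0.49, adjusted p = 3.0e-07). Gda, which encodes guanine deaminase, had 12.7, 10.8 and 10.1 CPM in the 3 proprioceptor libraries, against 199, 215, 189, 155 and 223 CPM in the 5 Aβ RA-LTMR libraries (log2 fold change -4.13 ± 0.27, adjusted p = 1.1e-10). Myo1a, an unconventional myosin, averaged 1.35 ± 1.09 CPM in proprioceptors and 26.2 ± 8.41 CPM in Aβ RA-LTMRs (log2 fold change -4.41 ± 0.45, adjusted p = 6.5e-08). Ptpro, a receptor-type tyrosine phosphatase, averaged 0.931 ± 0.555 CPM in proprioceptors and 16.4 ± 3.39 CPM in Aβ RA-LTMRs (log2 fold change -4.23 ± 0.37, adjusted p = 6.8e-09). For Itga3 and Myo1a the lowest Aβ RA-LTMR library was library 4, which was above every proprioceptor library, as the filters required. The 12 ranked genes with the largest decrease were picked for their excess in Aβ RA-LTMRs over proprioceptors. Of these, 5 had their highest mean of all 8 subtypes in Aβ RA-LTMRs. Tgm5 and Npy2r were not among them, with means of 49.8 CPM in C-LTMRs and 52.9 CPM in peptidergic nociceptors.

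Abundant genes fell too. Prune2, a BCH-domain protein, averaged 2283 ± 375 CPM in proprioceptors and 6346 ± 1151 CPM in Aβ RA-LTMRs (log2 fold change -1.47 ± 0.19, adjusted p = 2.5e-06). Timp2, an inhibitor of metalloproteinases, averaged 403 ± 82.2 CPM in proprioceptors and 1302 ± 108 CPM in Aβ RA-LTMRs (log2 fold change -1.69 ± 0.18, adjusted p = 1.1e-07). Susd2, a sushi-domain membrane protein, fell to 178 ± 52.5 CPM in proprioceptors, against 689.5 ± 109 CPM in Aβ RA-LTMRs (log2 fold change -1.96 ± 0.21, adjusted p = 2.2e-07), and Cntn1, the axonal adhesion molecule contactin 1, to 429 ± 72.8 CPM in proprioceptors, against 1113 ± 185 CPM in Aβ RA-LTMRs (log2 fold change -1.38 ± 0.23, adjusted p = 1.0e-04).

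Transcription factors of sensory neurons changed in both directions. Of 57 tested factors, 10 rose and 12 fell in proprioceptors, with a median log2 fold change of -0.28, and 5 and 10 of these calls also passed in the libraries of shared read lengths. Beside Runx3 and Etv1, the homeodomain factor Cux2 rose, with 70.8, 62.3 and 67.3 CPM in the 3 proprioceptor libraries, against 5.17, 1.32, 3.78, 3.15 and 3.53 CPM in the 5 Aβ RA-LTMR libraries (log2 fold change 4.30 ± 0.30, adjusted p = 1.8e-10). The orphan nuclear receptors Esrrg and Esrrb rose together. Esrrg averaged 388 ± 30.7 CPM in proprioceptors and 96.1 ± 13.04 CPM in Aβ RA-LTMRs (log2 fold change 2.01 ± 0.29, adjusted p = 1.5e-05). Esrrb averaged 19.8 ± 2.23 CPM in proprioceptors and 4.13 ± 2.01 CPM in Aβ RA-LTMRs (log2 fold change 2.26 ± 0.43, adjusted p = 4.7e-04), although Esrrb missed the threshold by a narrow margin in the libraries of shared read lengths (adjusted p = 0.05004).

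The paired-like homeodomain gene Prrxl1, known from dorsal horn and small sensory neurons, fell to 0.497 ± 0.285 CPM in proprioceptors, against 7.25 ± 1.94 CPM in Aβ RA-LTMRs (log2 fold change -3.96 ± 0.38, adjusted p = 2.3e-08). The T-box factor Tbx3 had 21.2, 9.11 and 8.59 CPM in the 3 proprioceptor libraries, against 111, 111, 111, 135 and 109.6 CPM in the 5 Aβ RA-LTMR libraries (log2 fold change -3.17 ± 0.35, adjusted p = 3.2e-07), with proprioceptor library 1 above the other two and far below all Aβ RA-LTMR libraries. Exons of Tbx3 overlap the antisense gene Tbx3os1. Ebf3, an early B-cell factor, averaged 14.4 ± 4.13 CPM in proprioceptors and 81.9 ± 14.3 CPM in Aβ RA-LTMRs (log2 fold change -2.51 ± 0.24, adjusted p = 3.2e-08). The POU factors Pou4f2 and Pou4f3 fell, with log2 fold changes of -2.29 and -1.78, and so did the ETS factor Etv5 (-1.79), whose direction is the opposite of its relative Etv1, and the LIM-homeodomain factor Isl2 (-1.31).

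Hox genes, the transcription factors that record position along the body axis, gave 4 increases and 9 decreases among 31 tested, with a median log2 fold change of -0.32. Leaving out proprioceptor library 2 gave 3 increases and 5 decreases, and so did leaving out proprioceptor library 3. In the libraries of shared read lengths there were 2 increases and 7 decreases, with a median of -0.74. Hoxc8 had 22.5, 36.3 and 29.3 CPM in the 3 proprioceptor libraries, against 7.55, 3.89, 5.95, 7.15 and 1.84 CPM in the 5 Aβ RA-LTMR libraries (log2 fold change 2.48 ± 0.38, adjusted p = 3.6e-05). Hoxc10 averaged 5.58 ± 1.06 CPM in proprioceptors and 1.57 ± 0.685 CPM in Aβ RA-LTMRs (log2 fold change 1.81 ± 0.39, adjusted p = 0.00167), although exons of Hoxc10 overlap those of Hoxc5. Hoxb9 averaged 9.08 ± 1.63 CPM in proprioceptors and 2.78 ± 1.199 CPM in Aβ RA-LTMRs (log2 fold change 1.72 ± 0.48, adjusted p = 0.0122), a call that was lost in the libraries of shared read lengths (log2 fold change 1.16). Hoxd1 had 2.45, 2.78 and 1.74 CPM in the 3 proprioceptor libraries, against 18.3, 27.8, 20.8, 19.2 and 24.7 CPM in the 5 Aβ RA-LTMR libraries (log2 fold change -3.26 ± 0.29, adjusted p = 7.3e-09), with about equal values inside each subtype and no overlap. Hoxb5 averaged 3.22 ± 0.123 CPM in proprioceptors and 21.9 ± 9.97 CPM in Aβ RA-LTMRs (log2 fold change -2.76 ± 0.34, adjusted p = 1.3e-06), with an antisense gene over its exons. Hoxd9 averaged 3.58 ± 1.07 CPM in proprioceptors and 10.7 ± 1.62 CPM in Aβ RA-LTMRs (log2 fold change -1.59 ± 0.31, adjusted p = 6.3e-04). Hoxd10 and Hoxd11 reached at most 0.136 and 0.0454 CPM in proprioceptors, and ran from 0.0937 to 2.52 CPM and from 0.0937 to 1.796 CPM in Aβ RA-LTMR libraries. Axial level differs between the groups by design, so it cannot be told apart from subtype here.

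**Figure D3:**
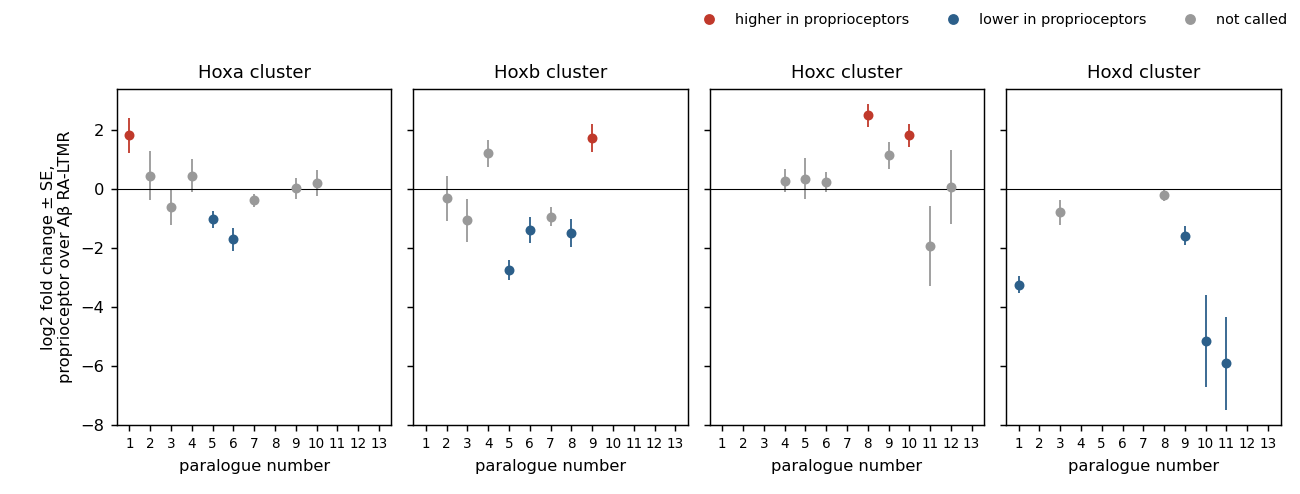
Log2 fold change with its standard error, proprioceptor over Aβ RA-LTMR, of the tested genes of the Hoxa, Hoxb, Hoxc and Hoxd clusters by paralogue number. Red points are called higher in proprioceptors, blue points lower and grey points not called. The called Hoxc genes lie above 0 and the called Hoxd genes below it.

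Receptors for neurotrophic factors moved in both directions, also within families. Of 16 tested, 4 rose and 6 fell, with a median log2 fold change of 0.31. Without proprioceptor library 1, 2 rose. Beside Ntrk3, the sorting receptors Sort1 and Sorcs2 rose. Sort1, which encodes sortilin, averaged 99.7 ± 9.26 CPM in proprioceptors and 32.1 ± 7.41 CPM in Aβ RA-LTMRs (log2 fold change 1.64 ± 0.23, adjusted p = 1.1e-05). Sorcs2 averaged 27.2 ± 0.887 CPM in proprioceptors and 6.901 ± 3.39 CPM in Aβ RA-LTMRs (log2 fold change 1.98 ± 0.39, adjusted p = 6.7e-04). Their relative Sorcs3 fell, at 5.25 ± 1.904 CPM in proprioceptors and 27.9 ± 7.98 CPM in Aβ RA-LTMRs (log2 fold change -2.43 ± 0.44, adjusted p = 2.4e-04). Ngfr, which encodes the shared neurotrophin receptor p75, averaged 207 ± 32.5 CPM in proprioceptors and 682 ± 99.3 CPM in Aβ RA-LTMRs (log2 fold change -1.72 ± 0.21, adjusted p = 1.2e-06). Gfra1, the GDNF co-receptor of Ret, averaged 22.5 ± 5.67 CPM in proprioceptors and 70.9 ± 14.5 CPM in Aβ RA-LTMRs (log2 fold change -1.66 ± 0.26, adjusted p = 3.5e-05). Ret, Gfra1 and Gfra2 were lower in every proprioceptor library than in any Aβ RA-LTMR library.

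Potassium channel genes differed most at the level of single subunits. Of 38 tested Kv1 to Kv4 genes and partners, 4 rose and 12 fell, with a median log2 fold change of -0.77. Kcnip2, a calcium-sensing partner of Kv4 channels, had 111, 88.7 and 101 CPM in the 3 proprioceptor libraries, against 4.66, 2.699, 3.87, 7.77 and 4.25 CPM in the 5 Aβ RA-LTMR libraries (log2 fold change 4.45 ± 0.31, adjusted p = 1.8e-10). Its relative Kcnip1 averaged 57.1 ± 15.6 CPM in proprioceptors and 7.75 ± 2.15 CPM in Aβ RA-LTMRs (log2 fold change 2.89 ± 0.39, adjusted p = 6.7e-06). Kcnd3, which encodes the Kv4.3 pore subunit, fell, at 11.2 ± 2.31 CPM in proprioceptors and 41.6 ± 6.71 CPM in Aβ RA-LTMRs (log2 fold change -1.90 ± 0.28, adjusted p = 1.9e-05). Kcnc1, which encodes the fast-deactivating channel Kv3.1, had 496, 455 and 395 CPM in the 3 proprioceptor libraries, against 83.6, 74.04, 95.4, 117 and 74.5 CPM in the 5 Aβ RA-LTMR libraries (log2 fold change 2.34 ± 0.19, adjusted p = 2.5e-09). Kcnb2, a Kv2 channel gene, averaged 166 ± 23.8 CPM in proprioceptors and 76.2 ± 16.7 CPM in Aβ RA-LTMRs (log2 fold change 1.12 ± 0.19, adjusted p = 1.1e-04). This call was lost without the 3 libraries of low exonic share, where its log2 fold change was 0.77. Kcns3, a silent subunit that modifies Kv2 channels, had 7.57, 2.43 and 1.89 CPM in the 3 proprioceptor libraries, against 75.9, 63.8, 62.2, 41.98 and 66.3 CPM in the 5 Aβ RA-LTMR libraries (log2 fold change -4.03 ± 0.54, adjusted p = 6.1e-06). Kcng4, another silent subunit, averaged 1.89 ± 0.391 CPM in proprioceptors and 8.58 ± 5.096 CPM in Aβ RA-LTMRs (log2 fold change -2.19 ± 0.41, adjusted p = 3.1e-04).

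Among 16 tested Kv7, EAG, ERG and ELK channel genes, 1 rose and 3 fell. The increase is near the 5.74% of all tested genes. Without proprioceptor library 3, 2 rose. Kcnh5, an EAG channel, averaged 11.1 ± 4.49 CPM in proprioceptors and 83.5 ± 19.9 CPM in Aβ RA-LTMRs (log2 fold change -2.92 ± 0.43, adjusted p = 2.2e-05). Kcnh6, an ERG channel, averaged 3.85 ± 0.793 CPM in proprioceptors and 12.96 ± 1.58 CPM in Aβ RA-LTMRs (log2 fold change -1.77 ± 0.21, adjusted p = 9.1e-07). Kcnh8, an ELK channel, rose, at 10.1 ± 1.19 CPM in proprioceptors and 2.96 ± 0.619 CPM in Aβ RA-LTMRs (log2 fold change 1.77 ± 0.33, adjusted p = 3.3e-04). Leak, inward-rectifier and calcium-activated channels gave 4 increases and 6 decreases of 31 tested, with a median of -0.02. Leaving out proprioceptor library 2 or proprioceptor library 3 gave 2 increases and 2 decreases, leaving out Aβ RA-LTMR library 2 gave 2 and 5, and the libraries of shared read lengths gave 3 and 3. Of the 4 increases and 6 decreases given first, 1 and 3 passed again in the libraries of shared read lengths.

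Sodium channel genes gave 1 increase and 5 decreases among 19 tested, which for the increase is near the 5.74% of all tested genes. The increase was lost without proprioceptor library 3, and 2 genes rose without Aβ RA-LTMR library 1, without proprioceptor library 1 and in the libraries of shared read lengths. The abundant alpha subunits Scn1a and Scn8a were not called. Scn1a averaged 465 ± 36.4 CPM in proprioceptors and 472 ± 96.9 CPM in Aβ RA-LTMRs (log2 fold change -0.02 ± 0.36, adjusted p = 0.9801). Scn8a averaged 606 ± 62.1 CPM in proprioceptors and 556 ± 128 CPM in Aβ RA-LTMRs (log2 fold change 0.12 ± 0.20, adjusted p = 0.725). Scn9a, which encodes Nav1.7, had 76.3, 56.02 and 62.1 CPM in the 3 proprioceptor libraries, against 385, 417, 499.9, 269 and 223 CPM in the 5 Aβ RA-LTMR libraries (log2 fold change -2.47 ± 0.31, adjusted p = 2.2e-06). Scn7a, which encodes the sodium-sensing channel Nax, averaged 256 ± 10.2 CPM in proprioceptors and 1126 ± 237 CPM in Aβ RA-LTMRs (log2 fold change -2.14 ± 0.18, adjusted p = 4.7e-09). Calcium channel genes gave no increase and 6 decreases of 23 tested, with a median of -0.47. Cacna1h, which encodes the low-voltage-activated channel Cav3.2, had 5.44, 1.77 and 2.57 CPM in the 3 proprioceptor libraries, against 42.8, 43.998, 48.6, 28.7 and 36.2 CPM in the 5 Aβ RA-LTMR libraries (log2 fold change -3.67 ± 0.33, adjusted p = 7.5e-09), with exons that overlap Tpsg1 on the opposite strand. The auxiliary subunit gene Cacna2d2 averaged 5.48 ± 1.65 CPM in proprioceptors and 27.9 ± 8.79 CPM in Aβ RA-LTMRs (log2 fold change -2.36 ± 0.56, adjusted p = 0.00367). Cacnb3, another of these, averaged 34.2 ± 8.896 CPM in proprioceptors and 106 ± 8.77 CPM in Aβ RA-LTMRs (log2 fold change -1.64 ± 0.17, adjusted p = 7.8e-08). Of the 4 HCN genes, which encode pacemaker channels, Hcn4 passed at the threshold (log2 fold change 1.01 ± 0.22, adjusted p = 0.00168) and lost its call in 11 of 20 alternative fits, among them those without Aβ RA-LTMR library 1, 2 or 5 and without proprioceptor library 1 or 3.

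Mechanosensory and acid-sensing genes gave 4 increases and 4 decreases of 32 tested. Without Aβ RA-LTMR library 5 these were 5 and 7. Piezo2, the mechanically gated channel that both proprioception and touch depend on, averaged 327 ± 57.8 CPM in proprioceptors and 501 ± 104 CPM in Aβ RA-LTMRs and did not reach the fold threshold (log2 fold change -0.62 ± 0.21, adjusted p = 0.0409). Asic1, an acid-sensing channel, had 232, 249 and 220.3 CPM in the 3 proprioceptor libraries, against 33.9, 23.98, 32.8, 26.5 and 24.4 CPM in the 5 Aβ RA-LTMR libraries (log2 fold change 3.04 ± 0.24, adjusted p = 1.4e-09). Asic3 of the same family fell, at 30.8 ± 10.2 CPM in proprioceptors and 79.4 ± 18.6 CPM in Aβ RA-LTMRs (log2 fold change -1.37 ± 0.31, adjusted p = 0.00243). Tmie, a partner of the transduction channel of hair cells, averaged 0.943 ± 0.1098 CPM in proprioceptors and 5.25 ± 1.702 CPM in Aβ RA-LTMRs (log2 fold change -2.46 ± 0.38, adjusted p = 3.2e-05), and its exons overlap Als2cl on the opposite strand.

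**Figure D4:**
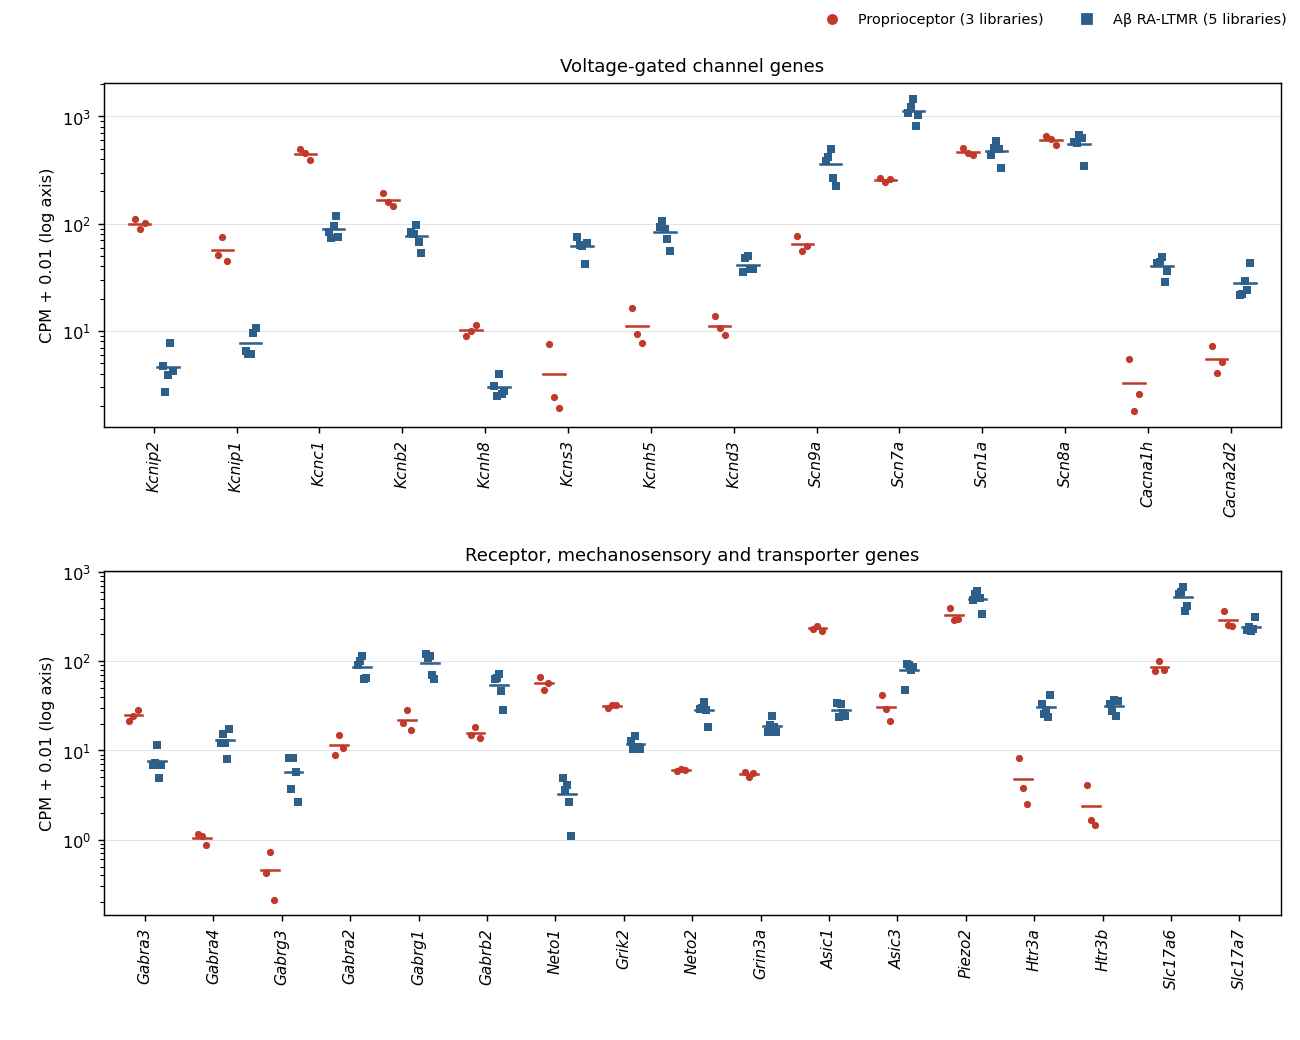
CPM plus 0.01, on a log axis, of 14 voltage-gated channel genes (top) and 17 receptor, mechanosensory and transporter genes (bottom) in each library, with proprioceptors as red circles at the left of each gene and Aβ RA-LTMRs as blue squares at its right. Short lines are group means. Kcnip2, Kcnc1, Asic1 and Neto1 are higher in every proprioceptor library, Kcns3, Cacna1h and Gabra2 are lower in every one, and Scn1a, Scn8a and Slc17a7 overlap.

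Several abundant GABA-A receptor genes were lower in proprioceptors. Of 19 tested genes for GABA-A subunits and chloride transport, 1 rose and 8 fell, with a median log2 fold change of -0.83. The increase is near the 5.74% of all tested genes, and 6 of the decreases passed in the libraries of shared read lengths. Gabra2 had 8.84, 15.1 and 10.6 CPM in the 3 proprioceptor libraries, against 90.2, 99.9, 115, 63.5 and 64.6 CPM in the 5 Aβ RA-LTMR libraries (log2 fold change -2.91 ± 0.28, adjusted p = 2.9e-08). Gabrg1 averaged 21.9 ± 5.62 CPM in proprioceptors and 95.4 ± 27.1 CPM in Aβ RA-LTMRs (log2 fold change -2.12 ± 0.36, adjusted p = 9.8e-05). Gabrb2 averaged 15.6 ± 2.21 CPM in proprioceptors and 54.8 ± 17.6 CPM in Aβ RA-LTMRs (log2 fold change -1.81 ± 0.36, adjusted p = 7.0e-04). Gabra4 averaged 1.03 ± 0.146 CPM in proprioceptors and 13.04 ± 3.52 CPM in Aβ RA-LTMRs (log2 fold change -3.67 ± 0.51, adjusted p = 8.1e-06), with exons that overlap the neighbouring Gabrb1. The subunit that rose was Gabra3, with 21.4, 24.3 and 28.4 CPM in the 3 proprioceptor libraries, against 6.95, 7.302, 11.5, 4.93 and 6.93 CPM in the 5 Aβ RA-LTMR libraries (log2 fold change 1.71 ± 0.33, adjusted p = 5.0e-04).

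Glutamate receptor genes changed in both directions. Of 21 tested genes for ionotropic receptors and their partners, 4 rose and 4 fell. Only 2 rose when Aβ RA-LTMR library 4, Aβ RA-LTMR library 5 or proprioceptor library 3 was left out. The auxiliary subunits of kainate receptors moved apart, with Neto1 at 66.4, 48.2 and 56.6 CPM in the 3 proprioceptor libraries, against 4.88, 3.56, 4.09, 2.67 and 1.09 CPM in the 5 Aβ RA-LTMR libraries (log2 fold change 4.11 ± 0.33, adjusted p = 2.3e-09). Neto2 stood at 6.07 ± 0.115 CPM in proprioceptors and 28.2 ± 5.96 CPM in Aβ RA-LTMRs (log2 fold change -2.21 ± 0.24, adjusted p = 1.9e-07). Grik2, a kainate receptor subunit, averaged 31.3 ± 1.38 CPM in proprioceptors and 11.8 ± 1.79 CPM in Aβ RA-LTMRs (log2 fold change 1.404 ± 0.22, adjusted p = 5.6e-05). Grin3a, an NMDA receptor subunit, averaged 5.46 ± 0.3896 CPM in proprioceptors and 18.8 ± 3.39 CPM in Aβ RA-LTMRs (log2 fold change -1.79 ± 0.21, adjusted p = 1.1e-06). Metabotropic glutamate and GABA-B receptor genes with their KCTD partners gave 2 increases and 2 decreases of 12. Grm7 averaged 16.9 ± 0.567 CPM in proprioceptors and 7.46 ± 1.65 CPM in Aβ RA-LTMRs (log2 fold change 1.18 ± 0.18, adjusted p = 2.2e-05). Grm5 averaged 0.3502 ± 0.172 CPM in proprioceptors and 4.503 ± 1.22 CPM in Aβ RA-LTMRs (log2 fold change -3.75 ± 0.72, adjusted p = 4.5e-04). Kctd8 rose, at 40.4 ± 2.29 CPM in proprioceptors and 15.6 ± 1.64 CPM in Aβ RA-LTMRs (log2 fold change 1.37 ± 0.20, adjusted p = 1.8e-05). Kctd16, which also binds GABA-B receptors, fell, at 2.47 ± 1.16 CPM in proprioceptors and 9.09 ± 3.103 CPM in Aβ RA-LTMRs (log2 fold change -1.92 ± 0.31, adjusted p = 6.0e-05).

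Transmitter storage and release genes included single members with large differences. Slc17a6, which encodes the vesicular glutamate transporter VGLUT2, had 76.96, 101 and 79.01 CPM in the 3 proprioceptor libraries, against 566, 595, 679.8, 365 and 419.9 CPM in the 5 Aβ RA-LTMR libraries (log2 fold change -2.62 ± 0.18, adjusted p = 1.8e-10), while Slc17a7 overlapped. Of 40 tested release genes, 4 rose and 3 fell, which for the decreases is near the 5.26% of all tested genes. In the libraries of shared read lengths 5 rose and 5 fell. Sv2a, a synaptic vesicle glycoprotein, had 184, 182 and 162 CPM in the 3 proprioceptor libraries, against 16.8, 5.36, 10.02, 9.195 and 5.37 CPM in the 5 Aβ RA-LTMR libraries (log2 fold change 4.23 ± 0.35, adjusted p = 3.0e-09). Syt7, a slow calcium sensor of release, averaged 60.5 ± 7.13 CPM in proprioceptors and 11.5 ± 6.21 CPM in Aβ RA-LTMRs (log2 fold change 2.41 ± 0.30, adjusted p = 2.2e-06). Unc13c, a vesicle priming protein, averaged 27.7 ± 3.06 CPM in proprioceptors and 5.15 ± 2.3997 CPM in Aβ RA-LTMRs (log2 fold change 2.43 ± 0.43, adjusted p = 2.3e-04). The vesicle GTPase gene Rab3c averaged 1174 ± 214 CPM in proprioceptors and 389 ± 86.4 CPM in Aβ RA-LTMRs (log2 fold change 1.59 ± 0.21, adjusted p = 4.7e-06). Cplx2, a complexin that clamps SNARE complexes, fell, with 24.9, 26.2 and 19.7 CPM in the 3 proprioceptor libraries, against 139.9, 113, 177, 229.6 and 233 CPM in the 5 Aβ RA-LTMR libraries (log2 fold change -2.92 ± 0.29, adjusted p = 5.6e-08). Rph3a, a Rab3 effector, averaged 189.9 ± 66.7 CPM in proprioceptors and 496 ± 81.5 CPM in Aβ RA-LTMRs (log2 fold change -1.38 ± 0.19, adjusted p = 6.8e-06). Rab3b averaged 1.26 ± 0.116 CPM in proprioceptors and 5.34 ± 2.16 CPM in Aβ RA-LTMRs (log2 fold change -2.10 ± 0.39, adjusted p = 3.0e-04).

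Calcium buffers gave 2 increases and 3 decreases of 17 tested. There was 1 increase in the libraries of shared read lengths and without Aβ RA-LTMR library 1, 2 or 3 or proprioceptor library 2 or 3. The contrast of Pvalb and Calb1 was joined by Necab1, a neuronal calcium-binding protein, at 25.6, 16.1 and 15.02 CPM in the 3 proprioceptor libraries, against 175, 196, 177, 145 and 168 CPM in the 5 Aβ RA-LTMR libraries (log2 fold change -3.19 ± 0.22, adjusted p = 1.8e-10). Necab3 also fell, at 65.5 ± 9.05 CPM in proprioceptors and 234 ± 98.5 CPM in Aβ RA-LTMRs (log2 fold change -1.84 ± 0.31, adjusted p = 9.3e-05). Of 6 intermediate filament genes (Nefl, Nefm, Nefh, Ina, Prph and Vim), Ina rose and none fell. There was 1 decrease without Aβ RA-LTMR library 4 and without proprioceptor library 2. Nefh, the heavy neurofilament, averaged 3246 ± 486 CPM in proprioceptors and 3064 ± 539 CPM in Aβ RA-LTMRs (log2 fold change 0.08 ± 0.19, adjusted p = 0.815). Nefm, the medium one, averaged 4915 ± 737 CPM in proprioceptors and 7698 ± 1532 CPM in Aβ RA-LTMRs (log2 fold change -0.65 ± 0.20, adjusted p = 0.0231). Exons of Nefm overlap those of Nefl on the opposite strand in the annotation. Among 22 pump and exchanger genes, 3 rose and 1 fell, which for the decrease is near the 5.26% of all tested genes. Only 1 rose in the libraries of shared read lengths and when Aβ RA-LTMR library 3, proprioceptor library 2 or proprioceptor library 3 was left out. The decreases were 2 without Aβ RA-LTMR library 1 or proprioceptor library 1, and 3 without Aβ RA-LTMR library 5.

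Guidance genes moved in both directions. Of 38 tested Eph, Slit, Robo and netrin genes, 10 rose and 8 fell, with a median log2 fold change of 0.45. Ntng1, which encodes the membrane-anchored netrin G1, had 32.4, 12.2 and 14.1 CPM in the 3 proprioceptor libraries, against 342, 395, 369.5, 303 and 291 CPM in the 5 Aβ RA-LTMR libraries (log2 fold change -4.13 ± 0.52, adjusted p = 2.5e-06). Genes of the netrin receptor families moved in both directions, with Dcc at 8.88 ± 3.09 CPM in proprioceptors and 0.673 ± 0.465 CPM in Aβ RA-LTMRs (log2 fold change 3.71 ± 0.76, adjusted p = 9.3e-04). Unc5b stood at 28.6 ± 2.298 CPM in proprioceptors and 3.09 ± 0.616 CPM in Aβ RA-LTMRs (log2 fold change 3.20 ± 0.25, adjusted p = 1.3e-09). Unc5d of the same family fell, at 7.15 ± 0.861 CPM in proprioceptors and 35.2 ± 11.7 CPM in Aβ RA-LTMRs (log2 fold change -2.30 ± 0.50, adjusted p = 0.00165). Slit ligands went opposite ways, with Slit3 at 14.5 ± 1.56 CPM in proprioceptors and 1.67 ± 1.05 CPM in Aβ RA-LTMRs (log2 fold change 3.11 ± 0.68, adjusted p = 0.00165). Slit1 stood at 11.2 ± 4.82 CPM in proprioceptors and 83.4 ± 16.3 CPM in Aβ RA-LTMRs (log2 fold change -2.91 ± 0.29, adjusted p = 6.3e-08). Ephrin receptors did too, with Epha3 at 6.59 ± 1.02 CPM in proprioceptors and 0.397 ± 0.1299 CPM in Aβ RA-LTMRs (log2 fold change 4.02 ± 0.66, adjusted p = 7.2e-05). Epha4 stood at 3.02 ± 0.4401 CPM in proprioceptors and 23.9 ± 8.89 CPM in Aβ RA-LTMRs (log2 fold change -2.98 ± 0.54, adjusted p = 2.2e-04).

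Semaphorin, plexin and neuropilin genes gave 2 increases and 7 decreases of 31, which for the increases is near the 5.74% of all tested genes. The receptor Nrp1 had 18.8, 12.3 and 6.85 CPM in the 3 proprioceptor libraries, against 85.2, 136, 142, 72.5 and 66.97 CPM in the 5 Aβ RA-LTMR libraries (log2 fold change -3.003 ± 0.30, adjusted p = 4.6e-08). Plxna4, which signals with neuropilins, averaged 22.5 ± 13.4 CPM in proprioceptors and 160.2 ± 37.9 CPM in Aβ RA-LTMRs (log2 fold change -2.84 ± 0.34, adjusted p = 8.9e-07). Sema3e, known as a cue between proprioceptors and motor neurons, averaged 7.53 ± 3.53 CPM in proprioceptors and 41.9 ± 12.5 CPM in Aβ RA-LTMRs (log2 fold change -2.49 ± 0.30, adjusted p = 1.3e-06). Sema5b averaged 4.74 ± 1.63 CPM in proprioceptors and 30.6 ± 7.75 CPM in Aβ RA-LTMRs (log2 fold change -2.70 ± 0.40, adjusted p = 2.3e-05). The semaphorin gene Sema6b rose, at 8.005 ± 0.704 CPM in proprioceptors and 0.466 ± 0.185 CPM in Aβ RA-LTMRs (log2 fold change 4.09 ± 0.52, adjusted p = 2.5e-06). Sema3f rose as well, at 43.6 ± 3.799 CPM in proprioceptors and 13.3 ± 1.92 CPM in Aβ RA-LTMRs (log2 fold change 1.71 ± 0.23, adjusted p = 5.4e-06).

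Of 29 cadherin and protocadherin genes, 5 rose and 8 fell, with a median of -0.46. Cdh12 had 76.6, 77.2 and 68.4 CPM in the 3 proprioceptor libraries, against 5.06, 3.39, 6.61, 3.198 and 2.12 CPM in the 5 Aβ RA-LTMR libraries (log2 fold change 4.17 ± 0.36, adjusted p = 5.6e-09). Cdh20 averaged 17.5 ± 6.96 CPM in proprioceptors and 5.16 ± 0.761 CPM in Aβ RA-LTMRs (log2 fold change 1.76 ± 0.31, adjusted p = 1.6e-04). Pcdh17 averaged 8.61 ± 3.54 CPM in proprioceptors and 49.3 ± 21.8 CPM in Aβ RA-LTMRs (log2 fold change -2.54 ± 0.41, adjusted p = 5.6e-05). Cdh10 averaged 8.57 ± 1.75 CPM in proprioceptors and 31.6 ± 8.29 CPM in Aβ RA-LTMRs (log2 fold change -1.88 ± 0.24, adjusted p = 2.7e-06). Synaptic organisers gave 3 increases and 11 decreases of 42. Beside Cbln4, the neuronal pentraxin Nptx1, which gathers AMPA receptors, averaged 38.2 ± 14.7 CPM in proprioceptors and 279.8 ± 31.7 CPM in Aβ RA-LTMRs (log2 fold change -2.88 ± 0.26, adjusted p = 1.2e-08). The contactin gene Cntn4 averaged 6.67 ± 1.39 CPM in proprioceptors and 57.7 ± 16.9 CPM in Aβ RA-LTMRs (log2 fold change -3.12 ± 0.29, adjusted p = 1.3e-08). Cntnap2, which holds potassium channels beside the node of Ranvier, rose, at 430.2 ± 76.1 CPM in proprioceptors and 159 ± 26.6 CPM in Aβ RA-LTMRs (log2 fold change 1.43 ± 0.14, adjusted p = 5.1e-08). Of 20 genes of the node, the initial segment and the perineuronal net, 1 rose and 2 fell, with 1 decrease without proprioceptor library 3. The increase is near the 5.74% of all tested genes. Tnr, which encodes tenascin R, rose, at 5.78 ± 1.72 CPM in proprioceptors and 1.27 ± 0.0994 CPM in Aβ RA-LTMRs (log2 fold change 2.18 ± 0.33, adjusted p = 3.0e-05). Nrcam, an adhesion molecule of the node, fell, at 61.4 ± 12.7 CPM in proprioceptors and 224 ± 35.1 CPM in Aβ RA-LTMRs (log2 fold change -1.87 ± 0.23, adjusted p = 1.4e-06).

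Neuropeptide genes gave 7 increases and 4 decreases of 26 tested. Tac1, the precursor of substance P, had 49.5, 76.3 and 100.4 CPM in the 3 proprioceptor libraries, against 5.53, 6.46, 9.43, 9.55 and 12.1 CPM in the 5 Aβ RA-LTMR libraries (log2 fold change 3.14 ± 0.37, adjusted p = 9.1e-07). Scg2, the granin secretogranin II, had 401, 363 and 404 CPM in the 3 proprioceptor libraries, against 54.4, 34.5, 49.03, 46.95 and 53.4 CPM in the 5 Aβ RA-LTMR libraries (log2 fold change 3.03 ± 0.21, adjusted p = 1.8e-10). Adcyap1, which encodes the peptide PACAP, averaged 61.4 ± 11.5 CPM in proprioceptors and 11.4 ± 3.02 CPM in Aβ RA-LTMRs (log2 fold change 2.42 ± 0.28, adjusted p = 5.1e-07). Calcb, which encodes the beta form of CGRP, averaged 9.84 ± 5.46 CPM in proprioceptors and 43.7 ± 12.8 CPM in Aβ RA-LTMRs (log2 fold change -2.15 ± 0.34, adjusted p = 5.4e-05). Vgf averaged 4.39 ± 3.28 CPM in proprioceptors and 17.7 ± 3.81 CPM in Aβ RA-LTMRs (log2 fold change -2.06 ± 0.39, adjusted p = 4.5e-04). Peptide and amine receptors gave 2 increases and 11 decreases of 44, with a median of -0.89, the increases near the 5.74% of all tested genes. In the libraries of shared read lengths these were 1 and 7, with a median of -0.47. The subunits of the serotonin-gated channel fell together, with Htr3a at 8.25, 3.74 and 2.49 CPM in the 3 proprioceptor libraries, against 33.2, 25.6, 28.7, 23.5 and 41.7 CPM in the 5 Aβ RA-LTMR libraries (log2 fold change -2.70 ± 0.61, adjusted p = 0.00246). Htr3b stood at 2.398 ± 1.5001 CPM in proprioceptors and 31.7 ± 5.23 CPM in Aβ RA-LTMRs (log2 fold change -3.77 ± 0.37, adjusted p = 3.6e-08). Oprk1, the kappa opioid receptor, averaged 0.476 ± 0.1903 CPM in proprioceptors and 5.91 ± 1.96 CPM in Aβ RA-LTMRs (log2 fold change -3.62 ± 0.72, adjusted p = 6.6e-04). Mc4r, a melanocortin receptor, rose, at 8.67 ± 1.09 CPM in proprioceptors and 0.655 ± 0.493 CPM in Aβ RA-LTMRs (log2 fold change 3.69 ± 0.59, adjusted p = 5.9e-05).

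Genes of oxidative phosphorylation gave 22 increases and no decrease among 75 nuclear genes tested, with a median log2 fold change of 0.83, but this moved with the libraries used. In the libraries of shared read lengths the median was 0.45, and 1 of the 22 increases was called again. Ndufa3, a subunit of complex I, had 71.6, 113 and 109.6 CPM in the 3 proprioceptor libraries, against 14.4, 14.9, 11.9, 41.4 and 80.1 CPM in the 5 Aβ RA-LTMR libraries. Aβ RA-LTMR libraries 4 and 5, which share the read lengths of the proprioceptor libraries, were the highest of their group, and library 5 overlapped with proprioceptors. Atp5k, a subunit of the ATP synthase, had 88.3, 170.4 and 159 CPM in the 3 proprioceptor libraries, against 32.2, 28.997, 19.3, 72.6 and 107 CPM in the 5 Aβ RA-LTMR libraries, with the same order. Without proprioceptor library 2 the count was 7, without proprioceptor library 3 it was 7 and without proprioceptor library 1 it was 41. Without Aβ RA-LTMR library 1, 2, 3 or 5 it was 13, 10, 8 or 43. Without the 3 libraries of low exonic share, chosen after seeing the data, it was 50. That fit leaves out Aβ RA-LTMR libraries 4 and 5, so read lengths differed between the subtypes throughout. With read-length class as a covariate there were 2 increases, with a median of 0.45. With exonic share as a covariate, also added after seeing the data, there were 35, with a median of 0.92. Beyond these fits, the part of read length, exonic share or subtype in these values was not tested. The plot of fold changes with and without the read-length difference shows 67 of the 75 genes below the line of equal values. In size, the fold change was smaller in the libraries of shared read lengths for 63 of these 75 genes. It was smaller in size for 21 of the 36 genes named for their fold or level. Those 36 had to be called in the libraries of shared read lengths to be named, so the sets are not alike.

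**Figure D5:**
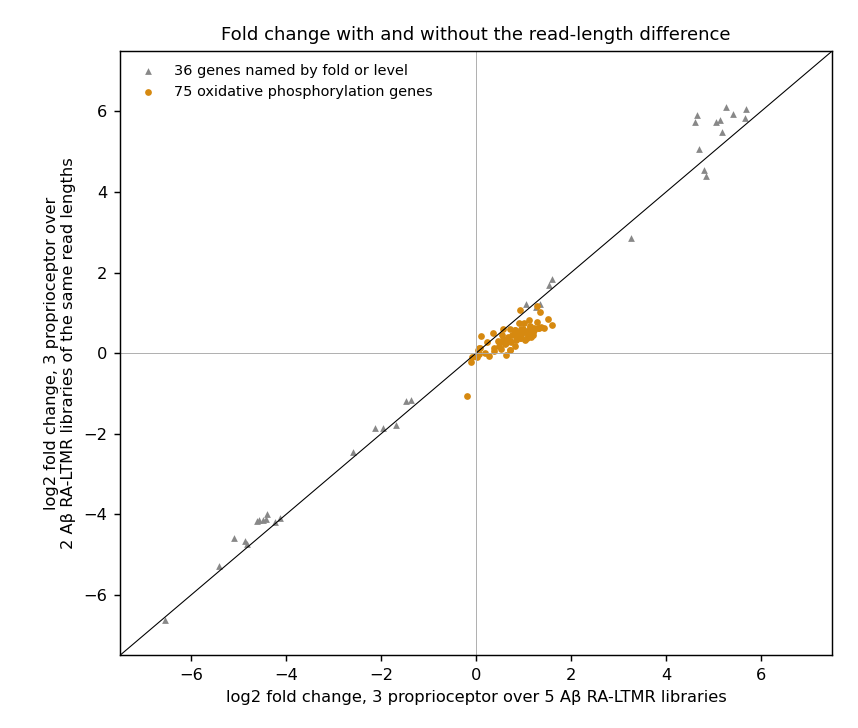
Log2 fold change in the 3 proprioceptor over the 2 Aβ RA-LTMR libraries of the same read lengths (vertical axis) against that over all 5 Aβ RA-LTMR libraries (horizontal axis), with the line of equal values. Orange circles are the 75 oxidative phosphorylation genes and grey triangles the 36 genes named for fold or level. Of the 75 genes, 67 lie below the line, and their median was 0.45 against 0.83.

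Genes of glycolysis and the citric acid cycle gave 4 increases and 1 decrease of 38, with a median of 0.13. The decrease is under the 5.26% of all tested genes. In the libraries of shared read lengths 2 rose, and the decreases were 3 without Aβ RA-LTMR library 4 and 2 without proprioceptor library 2. Aldoc, the aldolase of brain and glia, had 434, 519 and 574 CPM in the 3 proprioceptor libraries, against 148, 149, 118, 129.7 and 243 CPM in the 5 Aβ RA-LTMR libraries (log2 fold change 1.69 ± 0.24, adjusted p = 1.4e-05), and Aβ RA-LTMR library 5 was far above the other 4. Gapdh, whose many near-identical copies make its counts uncertain, had a log2 fold change of 2.63.

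RNA of other cells was measured beside these results. The summed level of 16 satellite glia genes ran from 2835 to 5357 CPM in proprioceptors and from 2050.5 to 4261 CPM in Aβ RA-LTMRs, which overlap. Of the 16 genes, 2 were called higher and none lower, with a median log2 fold change of 0.26. There was 1 increase without Aβ RA-LTMR library 1, 2 or 3 or proprioceptor library 2 or 3, and neither gene was called in the libraries of shared read lengths. Fabp7, a fatty acid binding protein of these cells, had 396, 1206 and 1338 CPM in the 3 proprioceptor libraries, against 421, 364, 249, 454 and 484 CPM in the 5 Aβ RA-LTMR libraries (log2 fold change 1.31 ± 0.29, adjusted p = 0.00194), and this call was lost in the libraries of shared read lengths. With the mean satellite glia level as a covariate, 771 genes were higher and 865 lower in proprioceptors, and 719 and 787 of these were among the calls without it. The summed level of 11 Schwann cell genes was 393 to 439.9 CPM in proprioceptors and 566 to 790.5 CPM in Aβ RA-LTMRs, without overlap. Pmp22, a membrane protein of myelin, made most of that sum, with 218, 226 and 228 CPM in the 3 proprioceptor libraries, against 419, 494, 650.4, 443 and 605 CPM in the 5 Aβ RA-LTMR libraries (log2 fold change -1.22 ± 0.20, adjusted p = 8.3e-05). Without Pmp22, a choice made after its values were seen, the sum was 167 to 212 CPM in proprioceptors and 106 to 185 CPM in Aβ RA-LTMRs, which overlap. Pmp22 was the single call among the 11 genes, whose median log2 fold change was -0.37, and 1 gene was called higher without Aβ RA-LTMR library 1.

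Summed endothelial genes were at 7.17 to 11.1 CPM in proprioceptors and 4.75 to 15.6 CPM in Aβ RA-LTMRs, and fibroblast genes at 39.6 to 49.1 CPM in proprioceptors and 31.6 to 63.9 CPM in Aβ RA-LTMRs. Macrophage genes reached at most 0.239 CPM in proprioceptors and 0.589 CPM in Aβ RA-LTMRs, and 5 of the 8 macrophage genes were too low to be tested. Summed nociceptor and C-LTMR markers were at 182 to 214 CPM in proprioceptors and 51.3 to 195 CPM in Aβ RA-LTMRs. The median log2 fold change of the 12 markers was -0.16, and a sum without Tac1 was not made. Tac1, described above, adds to the proprioceptor sums with a log2 fold change of 3.14 and is one of the 2 that were called, both higher. In the libraries of shared read lengths, and without Aβ RA-LTMR library 2, 1 was lower too. Immediate early and stress genes, which dissociation can raise, were at 1654 to 2326 CPM in proprioceptors and 965 to 1962 CPM in Aβ RA-LTMRs, with 3 increases and 1 decrease of 21. Their increases were 6 without Aβ RA-LTMR library 1 and 1 without Aβ RA-LTMR library 3 or proprioceptor library 3, and the decrease was lost without Aβ RA-LTMR library 5. Axon injury genes were at 103 to 121 CPM in proprioceptors and 63.3 to 138 CPM in Aβ RA-LTMRs. The part of these cells and states in the other results was not tested, apart from the satellite glia covariate.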

How the data were processed

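RNA of the sorted neurons was amplified (NuGEN) before Illumina TruSeq libraries were built, per the labels' protocols. The mm10 build and the tools FastQC 0.11.3, Cuffdiff, HTSeq 0.6.1, STAR and DESeq2 1.14.1 are listed without roles in the submitters' processing notes. The authors deposited raw counts per Ensembl gene for all 26 libraries and RPKM for the same libraries. Their alignment summary, as deposited, gives exonic, intronic, intergenic, mapping and duplicate shares as a fraction, GC content in percent, the bias between transcript ends as a ratio, mapped reads as counts and the read lengths. The deposited table of regularized log values, the bias ratio and the GC content were not used.

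Counts were fitted in R 4.3.3 with edgeR 4.0.16 on all 26 libraries, so that the 8 subtypes share 1 estimate of the spread: filterByExpr left 17411 genes, TMM set library factors, and a robust quasi-likelihood fit tested proprioceptors against Aβ RA-LTMRs. CPM used TMM library sizes. Standard errors were derived as the size of the log2 fold change over the square root of F. The test was checked on simulated counts. Alternatives were DESeq2 1.42.0 and its size factors, no filter, the 8 libraries alone, read-length class (within and as covariate), a satellite glia covariate, a replicate block, limma 3.58.1 on log2(RPKM + 0.1) and log2(RPKM + 1), and each library left out. The replicate block used libraries 1 to 3 of each subtype alone. After seeing the data, a fit without the 3 libraries under 60% exonic share and one with that share as covariate were added. Python 3.11.15, NumPy 2.4.6, pandas 2.3.3 and matplotlib 3.10.9 made summaries and figures.

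The members, gene lists and naming rule were chosen with earlier results of these data known. The rule names markers of both labels, the 12 genes of each direction with the largest fold and the 6 with the highest level among those at 5 CPM or more that did not overlap, had more than 3 counts in the lower subtype and were also called within the shared read lengths. It also names up to 4 called members of each list and direction, and all members of small families, not all of which are printed, and some genes are not reported here. Outside this rule, and chosen after their values were seen, are Esrrg, Etv5, Gabrb2, Gabrg1, Hoxd10, Hoxd11, Isl2, Piezo2, Pou4f3, Scn1a and Scn8a. Exons of 43 of the 151 genes whose values are given overlap another gene of the GENCODE annotation of GRCm38. The strand setting of the counting is not given in the sources used here, so reads of such pairs may be mixed. Besides the pairs named in the text, Colq, Gapdh, Lcp2, Ndufa3, Necab3 and Rps18 overlap protein-coding genes. Amplified libraries give relative levels.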

Additional observations from a re-analysis of the deposited data

Results flagged for a closer look

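In the 5 Aβ RA-LTMR libraries, 1 library stood apart from the other 4 for 9 of the 151 genes whose values are given, by Dixon's test, in which the gap to the nearest library is set against the whole range. Chance marks about 1 in 20 groups, and the proprioceptor libraries were too few for this test. Library 5 was the highest for Aldoc at 243 CPM, against a median of 148 CPM over the 5 libraries. It was also the highest for Isl2 at 24.0 CPM (median 17.3 CPM) and for Kcng4 at 17.6 CPM (median 6.66 CPM). For Necab3 it reached 409 CPM (median 192 CPM). Library 4 was the lowest for Myo1a at 11.9 CPM (median 27.5 CPM) and for Ngfr at 507 CPM (median 715 CPM), and the highest for Tbx3 at 135 CPM (median 111 CPM). Library 3 was the highest for Slit1 at 112 CPM (median 79.5 CPM), and library 2 the lowest for Vgf at 11.1 CPM (median 19.4 CPM). Each of these genes lay on the same side of all 3 proprioceptor libraries in all 5 Aβ RA-LTMR libraries.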

How the results depend on the processing

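The 999 genes higher in proprioceptors became 553 within the shared read-length class, 637 with that class as a covariate and 582 with limma on log2(RPKM + 1). The 915 lower genes became 490 with limma on log2(RPKM + 1). Every other alternative kept both counts within 1.5 times, with ranges of 720 to 1200 higher and 706 to 966 lower genes when 1 library was left out. Of the 142 called genes whose values are given, 116 kept their call in all 20 alternatives and none changed sign, with 18 calls lost under limma on log2(RPKM + 1) and 8 lost within the shared read-length class. Hcn4 lost its call without Aβ RA-LTMR library 1, 2 or 5 and without proprioceptor library 1 or 3, among others. Signs changed in genes without a call: the log2 fold change of Nefh was -0.0674 without the 3 libraries of low exonic share. The log2 fold change of Scn1a was 0.18 within the shared read-length class and 0.18 with that class as a covariate, 0.0909 with the satellite glia covariate, and -0.127 to 0.0699 when 1 library was left out, above 0 without Aβ RA-LTMR library 2 or 3 or proprioceptor library 3. The log2 fold change of Scn8a was -0.0244 with the replicate block, -0.1037 without the 3 libraries of low exonic share and -0.0080 to 0.2018 when 1 library was left out, below 0 without Aβ RA-LTMR library 5. The cause was not tested. The main fit did not pair libraries by replicate number. Deviations of same-numbered libraries from their group means correlated at -0.06, 0.08 and -0.01. Proprioceptor library 2 correlated best with the Aβ RA-LTMR library of its number, and proprioceptor libraries 1 and 3 did not. Such weak correlations cannot decide whether the numbers pair these libraries. The fit with the replicate block used libraries 1 to 3 of each subtype alone, so read lengths differed between the subtypes throughout. It called 1289 higher and 1147 lower genes. Differences in the 5 macrophage genes that were too low to be tested were not detectable at this depth.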
